A study of Drosophila melanogaster with 5 samples.

Results

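Rbp4, fest, Syp and bol are 4 genes whose products set when the mRNAs for meiotic division are translated in Drosophila spermatocytes. All 4 were found by symbol among the 14819 genes of the deposited table, and their RNA levels are described here in testes that pass from proliferating spermatogonia to spermatocytes. The libraries were made from polyA RNA of whole testes of hs-bam; bam[1]/bam[86] males, about 100 pairs per time point, with seminal vesicles included. Every group carries both mutant bam alleles, so that the spermatogonia do not differentiate on their own, and every group carries the hs-bam transgene, which places bam under a heat shock promoter. The flies were raised at 25 °C, with no heat shock (no HS) in one group, and in the others a single heat shock of 30 min at 37 °C in mid- to late-stage pupae, followed by 8, 16, 24 or 32 h at 25 °C post heat shock (PHS).

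Each group is 1 library, and p-values are therefore not given for any difference below. The heat shock promoter is not confined to germ cells, and no heat-shocked testes without hs-bam were analysed here. The effects of the heat shock and of Bam therefore cannot be told apart in any comparison with no HS. The PHS libraries share the heat shock but differ in the time since it. Between them the effects of that time and of Bam cannot be told apart either. The PHS libraries held between 21461541 and 28766676 reads on features, and no HS held 10356663. Levels are given as normalized CPM, the reads of a gene scaled to a library total of about 1000000, and 3 reads corresponded to 0.292 CPM in no HS and to between 0.105 and 0.142 CPM in the PHS libraries. Intervals in parentheses are 95% intervals of the reads, and they cover counting error only. Changes are differences of log2(CPM + 1), and a gene was called higher or lower when the difference was beyond 1, which is 2-fold.

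Spermatocytes grow and transcribe for a long time before they divide, and they make the mRNAs of the division machinery well ahead of its use. Rbp4 is an RNA-binding protein with RNA recognition motifs (RRM) that binds the CycB mRNA in young spermatocytes and holds back its translation. Fest is its partner in that repression. Syp, the fly homolog of hnRNP Q/Syncrip and also an RRM protein, is needed later for Cyclin B protein to accumulate, and is widely expressed outside the germ line. bol encodes Boule, the fly member of the DAZ family of RRM proteins, which is needed for translation of twe mRNA and for entry into the meiotic divisions. CycB encodes Cyclin B, and twe encodes the meiotic Cdc25 phosphatase. RNA levels say nothing of when these proteins were made or active.

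The 4 genes fell into 3 patterns, shown in the plot of their levels by library. Up to 16 h PHS Rbp4 was low but well detected, and fest was near the limit of detection, and both showed some of the largest increases of the time course at 24 and 32 h. Syp was present throughout and was higher at each later time, without reaching 2-fold. bol was present at a low level throughout and was slightly lower in every PHS library than in no HS.

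**Figure D1:**
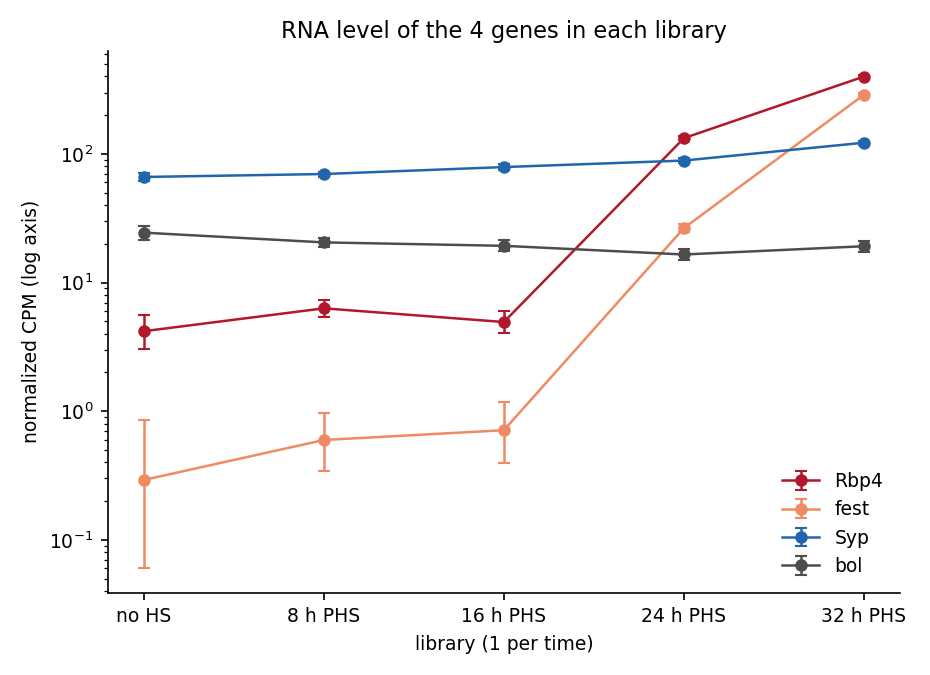
Normalized CPM (log axis) of Rbp4, fest, Syp and bol in the 5 libraries, 1 library per time, with bars for the 95% counting interval of each value. Rbp4 and fest stay at or under 6.31 and 0.712 CPM up to 16 h PHS and reach 399.6 and 289 CPM at 32 h, while Syp lies between 66.2 and 122 CPM and bol between 16.5 and 24.4 CPM.

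The repressor gene Rbp4 (FBgn0010258) lies on the reverse strand of chromosome arm 3R from 13654556 to 13656394 on BDGP6.54. Its levels in CPM were 4.19 (no HS), 6.31 (8 h), 4.94 (16 h), 133 (24 h) and 399.6 (32 h PHS), from 43, 169, 104, 3789 and 9464 reads. The first 3 libraries were thus low and close together, and the last 2 stood far above them. These are whole testes, in which fewer cells of a type and less RNA per cell cannot be told apart. The level at 24 h was 26.9 times that at 16 h (22.1 to 33.0), and the level at 32 h was 3.01 times that at 24 h (2.90 to 3.13). On the log2(CPM + 1) scale these steps were 4.49 and 1.58. Among all 17528 features only 1 had a larger step from 16 to 24 h, while 61 had a larger one from 24 to 32 h (rank 62). With 0.1 or 5 CPM added in place of 1 its rank was 5 or 2 at the earlier step and 189 or 20 at the later one.

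Among the low libraries the order was no HS, 16 h and 8 h. Rbp4 was 1.51 times as high at 8 h PHS as in no HS (1.07 to 2.16), a difference of 0.50 on the log2(CPM + 1) scale, which was not past 2-fold. The 16 h library lay between the others, at 1.18 times no HS with an interval of 0.819 to 1.72 that holds 1. Whether the 8 h value lies outside the variation between libraries was not tested, since there is 1 library for each time.

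The partner gene fest (FBgn0034435, chromosome arm 2R from 19341809 to 19345754, forward strand) had levels in CPM of 0.292 (no HS), 0.597 (8 h), 0.712 (16 h), 26.5 (24 h) and 289 (32 h PHS), from 3, 16, 15, 757 and 6837 reads. The first 3 values rest on few reads, and no difference among them was detectable at this depth, with intervals for the ratio to no HS of 0.585 to 11.0 at 8 h and 0.689 to 13.1 at 16 h. The level at 24 h was 37.2 times that at 16 h (22.4 to 66.9), and that at 32 h was 10.9 times that at 24 h (10.1 to 11.8). Against no HS the ratio at 32 h was 988 with an interval of 338 to 4793, which is wide because no HS held 3 reads.

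On the log2(CPM + 1) scale fest had the largest increase of all features at 32 h PHS against no HS, 7.81, and Rbp4 ranked 3 with 6.27. At 24 h PHS Rbp4 ranked 2 with 4.69 and fest ranked 3 with 4.41. The change of fest at 24 h depends on the 1 CPM added, since no HS held 3 reads. It was 6.09 (rank 2, with Rbp4 at rank 4) with 0.1 CPM added and 2.57 (rank 4, with Rbp4 at rank 2) with 5 CPM. Both genes were thus called higher at 24 h and at 32 h PHS, 2 of the 4 genes each time, where 0.548% of all features were called higher at 24 h and 1.13% at 32 h. None of the 4 genes was called at 8 or 16 h PHS, where 0.200% and 0.228% of all features were higher and 0.165% and 0.416% lower.

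Both genes were also past 2-fold at each of the last 2 steps. Of all features 0.245% were higher by more than 2-fold at 24 h against 16 h, and 0.742% at 32 h against 24 h. Rbp4 and fest were among 19 genes past 2-fold at both steps, of which 15 reached at least 10 CPM at 32 h. The 2 steps share the 24 h library, which enters them with opposite signs.

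**Figure D2:**
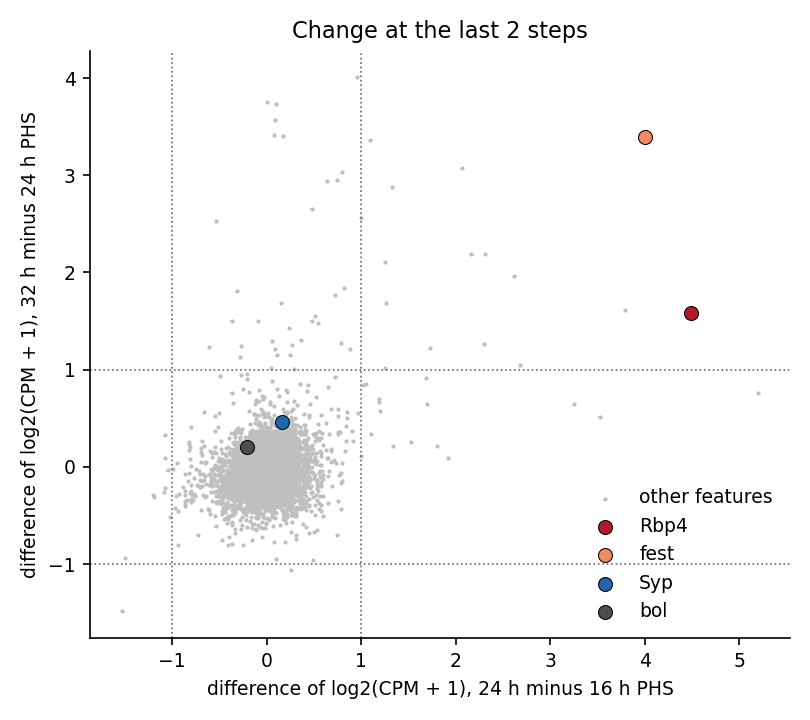
Difference of log2(CPM + 1) at 24 h minus 16 h PHS (horizontal) against 32 h minus 24 h PHS (vertical) for the 6819 features that reached 10 CPM in any library, with dotted lines at 2-fold. Rbp4 (4.49 and 1.58) and fest (4.01 and 3.40) lie in the upper right, and Syp (0.17 and 0.46) and bol (-0.21 and 0.20) within the cloud.

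The timing of the partners differed at the last step. At 24 h PHS Rbp4 stood at 33.2% of its 32 h level (32.0% to 34.5%), and fest at 9.18% of its own (8.51% to 9.90%). The intervals are far apart, although they leave out variation between libraries. The 5 early spermatocyte genes that were also past 2-fold at 32 h covered a wide range on this measure. It was 9.16% for comr (5.38% to 14.7%), 19.4% for nht (16.3% to 23.0%), 41.5% for fzo (26.0% to 64.8%), 42.8% for Taf12L (40.0% to 45.6%) and 69.8% for kmg (65.0% to 74.8%). Rbp4 and fest thus lay within that range, with fest at its lower end beside comr. This measure includes the level that a gene already had in no HS. As a share of the rise from no HS to 32 h, the 24 h values were 32.5% for Rbp4 and 9.09% for fest. They were 9.16% for comr, 11.4% for nht, 24.9% for Taf12L, 31.2% for fzo and 68.6% for kmg. On that measure Rbp4 stood above fzo and Taf12L, and on the first measure below both.

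A ratio of 2 genes within a library does not depend on how the libraries were scaled to each other. Per kb of exon, the fest level was 0.0326 times the Rbp4 level in no HS (0.00646 to 0.102) and 0.0933 times in the 24 h library (0.0862 to 0.101), with 0.0442 and 0.0673 in the libraries between them. In the 32 h library it was 0.337 times the Rbp4 level (0.327 to 0.348). Rbp4 RNA was therefore the more abundant of the pair per kb in every library, 10.7 times at 24 h and 2.96 times at 32 h. The interval at 24 h overlaps that in no HS, where fest had 3 reads, and that at 16 h (0.0364 to 0.116). It lies above that at 8 h (0.0247 to 0.0739) and below that at 32 h.

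Syp (FBgn0038826, chromosome arm 3R from 20756729 to 20810726, forward strand), the later-acting factor, had levels in CPM of 66.2 (no HS), 69.8 (8 h), 79.1 (16 h), 88.8 (24 h) and 122 (32 h PHS), from 680, 1870, 1666, 2537 and 2897 reads. Each library was higher than the one before it in time. At 8 h Syp was 1.05 times its no HS level, and the interval (0.965 to 1.15) includes 1. The ratio to no HS then reached 1.19 (1.09 to 1.31) in the 16 h library, 1.34 (1.23 to 1.46) in the 24 h library and 1.85 (1.70 to 2.01) in the 32 h library. The step from 24 to 32 h was the largest, at 1.38 times (1.30 to 1.45). No change of Syp was past 2-fold, and on the log2(CPM + 1) scale the change at 32 h was 0.88. Of the 6733 features with at least 10 CPM at 32 h PHS or in no HS, 98.6% had a lower change than Syp at 32 h.

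Syp is expressed in several cell types. Of 10 muscle genes, which mark the testis sheath, all were higher at 32 h PHS than in no HS with a median log2 change of 0.33, and their summed level was between 1735 and 2027 CPM in the PHS libraries, against 1574 CPM in no HS. Their sum was highest at 24 h PHS, where 1 of them, bt, was past 2-fold higher (log2 change 1.02), which is 10.0% of the list against 0.548% of all features. The interval of the ratio for bt of 2.04 (1.89 to 2.21) includes 2. Syp was highest at 32 h. The 7 neuron genes summed to between 53.2 and 60.5 CPM in the PHS libraries and to 61.2 CPM in no HS. The 6 cyst cell genes summed to between 167 and 200.2 CPM in the PHS libraries, against 211 CPM in no HS. At 32 h PHS 3 of the 6 were above no HS and 3 below, with a median log2 change of -0.04. The lowest change was that of zfh1, at 64.7 CPM at 32 h PHS, against 113.8 CPM in no HS. The part of these cells in the Syp values was not tested.

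bol (FBgn0011206, chromosome arm 3L from 9097629 to 9134405, reverse strand) had levels in CPM of 24.4 (no HS), 20.5 (8 h), 19.3 (16 h), 16.5 (24 h) and 19.2 (32 h PHS), from 251, 550, 407, 472 and 454 reads. The values lay close together, with no HS highest and 24 h lowest. The ratio to no HS lay between 0.676 (0.579 to 0.791), in the 24 h library, and 0.840 (0.722 to 0.979), in the 8 h library, and all 4 intervals lay below 1. Among the PHS libraries, the 8, 16 and 32 h values did not differ beyond counting error, with a ratio of 32 h to 8 h of 0.934 (0.823 to 1.06). The step from 24 to 32 h was 1.16 times (1.02 to 1.32). No change of bol was past 2-fold at any time, and the one farthest from 0, at 24 h against no HS, was -0.54 on the log2(CPM + 1) scale.

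The levels of different genes can be compared per kb of exon only. In no HS Syp had the highest level of the 4 at 5.90 CPM per kb, followed by bol at 2.99, Rbp4 at 2.76 and fest at 0.0900. The Rbp4 and bol values in no HS did not differ beyond counting error, with a ratio of Rbp4 to bol of 0.924 (0.652 to 1.28). At 24 h PHS Rbp4 was first at 87.6 CPM per kb, fest (8.17) and Syp (7.91) were close to each other, and bol was last at 2.02. The lengths of Syp and bol are joined over 20 and 9 transcripts. These values therefore do not settle whether fest or Syp had more RNA molecules at 24 h, or Rbp4 or bol in no HS. At 32 h PHS the order was Rbp4 at 264, fest at 89.0, Syp at 10.9 and bol at 2.35 CPM per kb, and Rbp4 ranked 258 of 14797 genes with an annotated length. The Syp to bol ratio was higher in each later library, from 1.97 (1.70 to 2.29) in no HS through 2.47, 2.98 and 3.91 to 4.64 (4.2 to 5.14) in the 32 h library.

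The annotated gene models of the 4 differ widely, a feature that the choice of genes did not use. Rbp4 spans 1839 bp with 1 transcript and a largest intron of 112 bp, and fest spans 3946 bp with 2 transcripts. Syp spans 53998 bp with 20 transcripts and a largest intron of 15546 bp, and bol spans 36777 bp with 9 transcripts and a largest intron of 10128 bp. The exonic length joined over transcripts is 1515 bp for Rbp4, 3245 for fest, 11225 for Syp and 8169 for bol. Levels per kb of Syp and bol are therefore lower than they would be for any single shorter transcript, and the counts do not tell their transcripts apart.

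The exons of Rbp4, fest and Syp overlap those of no other annotated gene, and 2.04% of the exonic bases of bol lie in a transposable element that had no more than 0.0373 CPM in any library. Rgk1, which overlaps the fest span on the opposite strand without sharing exonic bases, was at 21.4 CPM in no HS and between 20.2 and 23.8 CPM in the PHS libraries. The closest genes on either side of Rbp4 are rin, 29 bp away, and Hrb87F, 452 bp away, an RRM gene of the hnRNP A family. rin was at 1328 CPM at 32 h PHS, against 1461 CPM in no HS. Hrb87F was at 1033 CPM at 32 h PHS, against 794 CPM in no HS. The log2 changes at 32 h PHS against no HS were -0.137 for rin and 0.379 for Hrb87F, beside 6.27 for Rbp4. Whether reads from either neighbour entered the Rbp4 count was not tested.

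CycB, the gene whose mRNA Rbp4 and Fest act on in spermatocytes, moved the other way in whole testes. It serves the mitoses of spermatogonia as well, and the part of its RNA that lay in spermatocytes was not measured. CycB had levels in CPM of 198.5 (no HS), 193 (8 h), 162 (16 h), 84.9 (24 h) and 69.96 (32 h PHS). It was past 2-fold lower against no HS at 24 h (log2 change -1.22) and at 32 h (-1.49), where 0.987% and 1.18% of all features were lower. Per kb of exon the Rbp4 level was 0.0612 times the CycB level at 16 h (0.0498 to 0.0744), 3.14 times at 24 h (2.99 to 3.31) and 11.5 times at 32 h PHS (10.9 to 12.1). The fest level was 0.293 times the CycB level at 24 h (0.270 to 0.318) and 3.87 times at 32 h (3.67 to 4.09). Both RNAs were thus less abundant per kb than CycB in the first 3 libraries, and both exceeded it at 32 h.

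**Figure D3:**
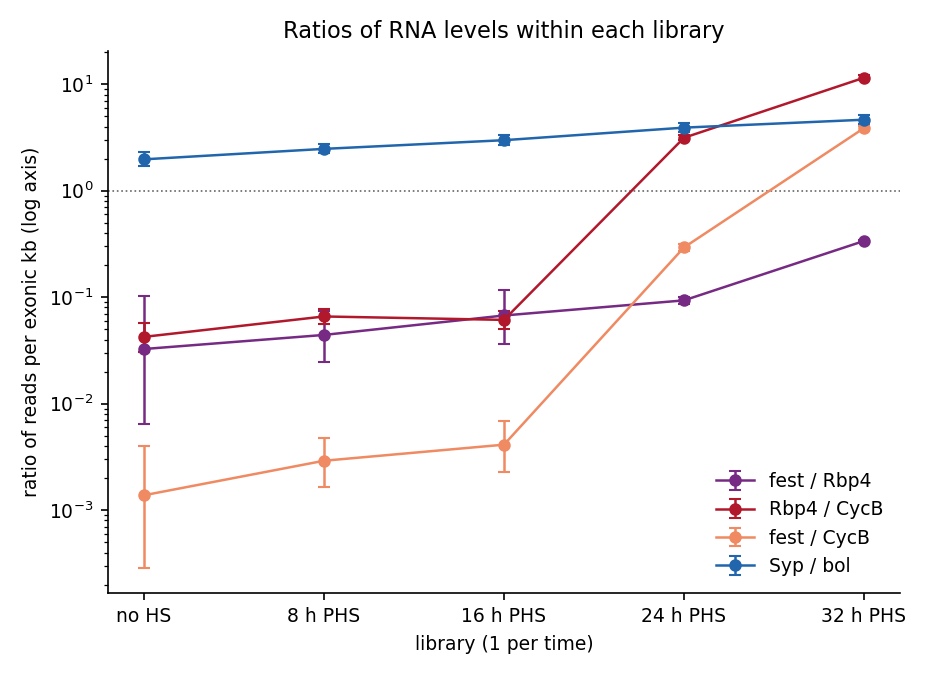
Ratio of the levels of 2 genes per exonic kb within each library of whole testes (log axis), with 95% counting intervals and a dotted line at 1. The ratio of Rbp4 to CycB passes 1 between 16 h (0.0612) and 24 h PHS (3.14), that of fest to CycB between 24 h (0.293) and 32 h (3.87), and that of Syp to bol lies between 1.97 and 4.64.

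twe, the mRNA that depends on bol, had levels in CPM of 51.5 (no HS), 44.6 (8 h), 36.02 (16 h), 26.6 (24 h) and 21.9 (32 h PHS). It was past 2-fold lower at 32 h (log2 change -1.20). Per kb of exon the bol level was 0.138 times the twe level in no HS (0.118 to 0.161) and 0.255 times at 32 h PHS (0.225 to 0.290). The twe level was thus the higher one per kb in every library. The exonic length of bol is joined over 9 transcripts, and at 32 h bol had 454 reads and twe 518. Which of the 2 had more RNA molecules at 32 h is therefore not settled by these ratios.

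The same direction held for most of the division machinery. Of 16 genes that act at the G2/M transition, 15 were below no HS at 32 h PHS with a median log2 change of -0.59, and 6 were past 2-fold, which is 37.5% against 1.18% of all features. Besides CycB and twe these were stg, the mitotic Cdc25 phosphatase (28.2 CPM at 32 h PHS, against 59.3 CPM in no HS), fzy, the Cdc20 homolog (65.2 against 148.8 CPM), aurA, the Aurora A kinase (37.3 against 82.4 CPM), and Cks30A, a subunit of the Cdk1 complex (9.54 against 23.0 CPM). No gene of this list was higher by more than 2-fold at any time. Between 0.200% and 1.13% of all features were higher against no HS, so that 0 of 16 is not apart from all features. Genes of this list serve the mitoses of spermatogonia as well.

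Among 18 other regulators of translation in germ cells that were measured, 1 was past 2-fold at 32 h PHS, which is 5.56% against 1.13% of all features. This was orb2, a CPEB protein needed for male meiosis, at 39.5 CPM at 32 h PHS and 18.9 CPM in no HS (log2 change 1.03), with 19.2 CPM at 24 h. The call of orb2 is close to the limit, since the interval of its ratio of 2.09 (1.79 to 2.45) includes 2. The median log2 change of the list was -0.12 at 32 h, beside 0.00 over all features. Per kb of exon the most abundant members at 32 h were the cap-binding factor gene eIF4E1 (181 CPM per kb at 32 h PHS, against 197 in no HS) and eIF4G2, an eIF4G paralog needed for spermatocyte divisions (134 against 122). They were followed by eIF4E3, a testis eIF4E (113 against 101), the germ line repressor gene nos (107 against 184) and tral, which encodes a protein of P bodies (106 against 146). None of these 5 was past 2-fold at 32 h.

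Of 12 genes for other RRM proteins, 0 were past 2-fold at any time, where between 0.165% and 1.18% of all features were called in each direction, so that 0 of 12 is not apart from all features. Their changes at 32 h PHS lay between -0.64 and 0.55. The highest change was that of Rb97D, an hnRNP A protein needed for male fertility, at 116 CPM at 32 h PHS, against 79.3 CPM in no HS. The median log2 change of these genes at 32 h was 0.02.

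Genes of the early spermatocyte program had the highest median change of the 4 lists at 32 h PHS, 0.95, beside 0.00 over all features. Of 11 genes, 5 were higher by more than 2-fold at 32 h PHS, which is 45.5% against 1.13% of all features, namely kmg, comr, nht, Taf12L and fzo. At 16 h 2 of the 11, topi and nht, were past 2-fold lower, which is 18.2% against 0.416% of all features. kmg was at 73.8 CPM at 32 h PHS, against 2.63 CPM in no HS. Taf12L, which encodes a testis-specific TAF, was at 113 CPM at 32 h PHS, against 26.9 CPM in no HS, and nht, another of these TAFs, at 30.2 CPM, against 2.73 CPM. comr, a subunit of the testis meiotic arrest complex tMAC, was at 7.26 CPM at 32 h PHS and had 0 reads in no HS. fzo, the mitofusin of spermatids, reached 2.62 CPM at 32 h PHS, against 0.39 CPM in no HS (4 reads). Per kb of exon, Rbp4 exceeded kmg 4.02 times at 24 h (3.78 to 4.27) and 8.44 times at 32 h PHS (8.02 to 8.89).

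**Figure D4:**
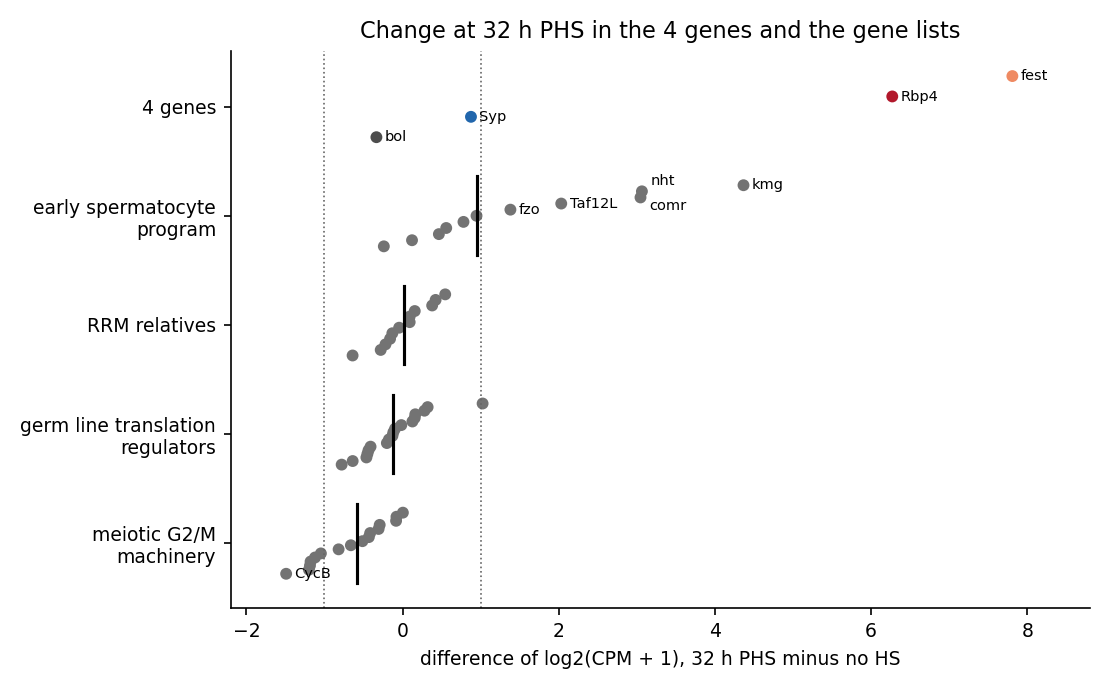
Difference of log2(CPM + 1) between 32 h PHS and no HS for the 4 genes and for the genes of 4 lists, 1 point per gene, with a black bar at each list's median and dotted lines at 2-fold. fest (7.81) and Rbp4 (6.27) lie to the right of every list gene, Syp (0.88) and bol (-0.33) lie within 2-fold, and the list medians are 0.95, 0.02, -0.12 and -0.59 from top to bottom. comr has 0 reads in no HS, so that its position depends on the 1 CPM added.

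The genes whose changes from no HS over the 4 later libraries lay closest to those of Rbp4, by Euclidean distance on the log2(CPM + 1) scale among 6811 genes, were Gld2 (1.21), fest (1.59), betaNACtes2 (1.76), kmg (2.19) and ATPsynbetaL (3.10). Gld2 encodes a poly(A) polymerase of the testis, betaNACtes2 a testis form of the NAC beta subunit, and ATPsynbetaL a paralog of the ATP synthase beta subunit. The 5 closest to fest were Rbp4 (1.59), Gld2 (2.02), betaNACtes2 (2.89), kmg (3.52) and ATPsynbetaL (3.68). The distance depends on the size of the changes as well as on their timing. ATPsynbetaL, the farthest of the 5 in both cases, had a change of 1.84 at 24 h and 5.20 at 32 h. At 24 h the changes of Rbp4 and fest were 4.69 and 4.41. Gld2 was at 171 CPM at 24 h and 290.4 CPM at 32 h PHS, against 2.34 CPM in no HS. It was thus nearer its 32 h level at 24 h than Rbp4 was.

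The labels call the cells primarily germ cells, and markers of the stages were read beside these values. The 6 germ line genes summed to between 1272 and 1491 CPM in the PHS libraries and to 1363 CPM in no HS, but piwi, which is strongest in early germ cells and somatic cells, was past 2-fold lower from 16 h on (44.1 CPM at 32 h PHS, against 149.7 CPM in no HS), and zpg, the germ line innexin, at 32 h (63.5 against 160.7 CPM). Of 5 spermatid genes measured, Mst98Ca, Mst98Cb and dj had 0 reads in no HS, and the 5 summed to 2.36 CPM at 32 h PHS, against 0.974 CPM in no HS. The 5 accessory gland genes summed to 2.10 CPM at 24 h PHS and to between 0.299 and 0.584 CPM in the other libraries. Both sums were thus low in every library. The spermatid sum was nevertheless highest at 32 h and the accessory gland sum at 24 h, the libraries where Rbp4 and fest were high. The part of a changing mix of germ cell stages in the values of the 4 genes was not tested.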

How the data were processed

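Testis RNA from 5 groups was analysed, 1 library each. Per the methods of the study, reads were trimmed with Trim Galore 0.4.3, aligned with STAR 2.5.3 to BDGP6.46, reduced with SAMtools 1.4.1 to properly paired alignments whose mapping quality was 10 or more, counted per gene with featureCounts (Subread 1.5.0), and TMM-normalized with edgeR 3.34.0 under R 4.1.0. Whether counting used strand is not given in the sources used here. The authors deposited log2 values, computed after adding 1 to normalized CPM. The table covers 14819 genes plus 2709 transposons, with 0 value columns left without a sample.

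The log2 was undone and the added 1 subtracted to give CPM. In each library 100% of the values were whole multiples of 1 step (within 1% of a read up to 100 reads, and within 0.01% of the reads above that), which gave the reads. With 1 library per group no count model has residual variation, so that none was fitted. Ratio intervals between libraries and within a library are Clopper-Pearson, and intervals of single levels are exact Poisson. PCR reads are not independent molecules, so that both cover counting error only. The steps were tested on simulated data. Coordinates, transcripts and exonic lengths are from Ensembl release 115 (BDGP6.54), a later annotation than that of the authors, in which 14797 gene identifiers were found. The planned protein and promoter features were not analysed here, and no sequence is shown.

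The genes and the lists were chosen with earlier results of these data known. Named were list genes past 2-fold at any time, CycB and twe, abundant list members where levels are described, and for Rbp4 and fest the 5 nearest profiles among genes with at least 10 CPM in one library. Of the list genes 4 were not analysed here (lut, cup, Mst84Da and don). The alternatives tried were pseudocounts of 0.1 and 5 CPM, other scalings, baselines, thresholds and filters. Python 3.11.15, numpy 2.4.6, pandas 2.3.3, scipy 1.17.1 and matplotlib 3.10.9 were used.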

Additional observations from a re-analysis of the deposited data

How the results depend on the processing

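Of the 88 values computed for the changes of the 4 genes from no HS under other settings, 80 moved by less than the counting interval and 0 of the calls changed direction. The uncalled change of Rbp4 at 16 h was -0.074 against the mean of no HS and 8 h and -0.30 against 8 h, beside 0.20 against no HS. With a pseudocount of 5 CPM the change of Rbp4 was 3.91 at 24 h and 5.46 at 32 h PHS, and that of fest 2.57 at 24 h and 5.79 at 32 h. With 0.1 CPM that of fest at 24 h was 6.09. With 8 h PHS in place of no HS as the baseline, the change of Rbp4 was 4.19 at 24 h and 5.78 at 32 h, and that of bol -0.084 (16 h), -0.30 (24 h) and -0.094 (32 h PHS). With a pseudocount of 0.1 CPM the number of the 4 genes past 2-fold at 16 h was 1 (fest, on 15 reads and 3 reads in no HS). Over genes with a mean of at least 1 CPM the median change of the other RRM genes was -0.11 at 8 h and -0.044 at 32 h. With a pseudocount of 0.1 CPM the median of the early spermatocyte list was 0.84 at 24 h and 2.07 at 32 h. At 32 h PHS 198 features were higher and 207 lower, against 1233 and 746 with a pseudocount of 0.1 CPM, 72 and 103 with 5 CPM, 642 and 709 past 1.5-fold and 88 and 40 past 3-fold. At 24 h 96 were higher and 173 lower, against 1273 and 650, 34 and 81, 515 and 553, and 21 and 36 under the same settings. At 16 h 40 were higher and 73 lower, against 912 and 513, 8 and 21, 278 and 358, and 9 and 8. At 8 h 35 were higher and 29 lower, against 954 and 405, 7 and 8, 241 and 148, and 8 and 3. Among features with at least 10 CPM in one library, 10, 10, 46 and 78 were higher at 8, 16, 24 and 32 h, and 13, 37 and 113 lower at 8, 16 and 24 h. No paired analysis was possible because each group has 1 library. The depth of no HS limits fest most, and without replicates no difference can be set against the variation between libraries.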

Other observations

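Of the 11 genes of the early spermatocyte list, topi and nht were past 2-fold lower than in no HS at 16 h PHS, and nht alone of the pair was past 2-fold higher at 32 h. topi, a subunit of tMAC, had levels in CPM of 18.3 (no HS), 16.9 (8 h), 8.35 (16 h), 5.43 (24 h) and 36.2 (32 h PHS), and was past 2-fold lower than in no HS at 16 h (log2 change -1.05) and 24 h (-1.59), with 0.95 at 32 h. The levels of nht were 2.73 (no HS), 1.19 (8 h), 0.380 (16 h), 5.85 (24 h) and 30.2 CPM (32 h PHS). Rbp4, by contrast, had 4.94 CPM at 16 h PHS and 4.19 CPM in no HS. These values were noticed after the data had been seen and have no replicate check.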
